A study of Mus musculus with 16 samples.

Results

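The genes of the proteasome were followed across 4 groups of differentiated mouse cells, labelled brown adipocytes, that differed in the transfected plasmid and in β-adrenergic stimulation. The set was defined by symbol alone, with no measured value: every row of the count table named *Psma*, *Psmb*, *Psmc*, *Psmd*, *Psme*, *Psmf* or *Psmg* with a number and at most 1 further letter, without the interferon targets *Psmb8* and *Psmb9*, plus the transcription factor gene *Nfe2l1*. This gave 48 of the 54347 genes in the table, of which 45 were abundant enough to be among the 13150 genes tested. By role, the 48 were 8 genes of the alpha ring and 9 of the beta ring of the core particle, 6 ATPases and 3 non-ATPases of the base and 8 subunits of the lid of the regulatory particle, 7 assembly chaperones, 6 activator caps or inhibitors, and *Nfe2l1*. The 3 genes that were not tested were at or near 0. *Psma8*, a testis form of an alpha subunit, had a count in 1 of 16 libraries, *Psmb11*, the thymic catalytic subunit, had 1 to 7 counts, and *Psme2b*, a copy of *Psme2*, had 0 to 10.

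All 16 libraries came from wt1-SAM, an immortalised brown preadipocyte line with a stably integrated CRISPR activation system (dead Cas9 with guide-recruited activators), so the model is 1 line, and whether it is a clone was not given in the sources used here. In every group, preadipocytes were differentiated with a cocktail that included rosiglitazone, insulin, T3, dexamethasone, indomethacine and IBMX, then given 250 ng of plasmid by reverse transfection on day 4 and harvested on day 7. The groups were empty vector without stimulation (empty vector control), empty vector with 1 µM of the β-adrenergic agonist isoproterenol for the final 24 h (empty vector isoproterenol), the plasmids labelled pSgRNA-MS2-2+7, which encode sgRNAs against the long non-coding RNA gene *Gm15551*, without stimulation (sgRNA control), and the same plasmids with isoproterenol (sgRNA isoproterenol). Each group held 4 libraries of polyadenylated RNA with the replicate numbers 3, 4, 5 and 6, and the labels do not say whether these were separate cultures, so p-values measure the spread between these libraries only. With bulk RNA, fewer cells of a type and less RNA per cell cannot be told apart.

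The proteasome degrades ubiquitin-tagged proteins. Its core particle is a stack of alpha and beta rings with the proteolytic sites inside the beta rings, the regulatory particle unfolds and feeds in the substrate, and alternative caps encoded by *Psme1* to *Psme4* open the core without ubiquitin. *Nfe2l1* encodes an endoplasmic reticulum-bound transcription factor that raises transcription of proteasome genes when proteasome activity is short, and it is known to sustain proteasome activity in brown fat during cold adaptation.

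Libraries held 9053521 to 16546187 counts, of which 1 ribosomal RNA gene took 11.7% to 51.8%, and this share was higher with the empty vector than with sgRNA in 8 of 8 pairs of the same number and treatment. With the empty vector it was also higher with isoproterenol than in control, in 4 of 4 pairs (means of 29.0% and 36.8% in control and isoproterenol). With sgRNA it was higher in 2 of 4 pairs and lower in the others (means of 19.1% and 21.1%). The members together took 0.705% to 0.872% of the remaining counts, and 3 counts, the limit that a count of 0 allows, were worth 0.166 to 0.390 CPM (depth-scaled counts, adjusted here by TMM, a normalization to the bulk of genes). Genes of adipocytes in general were high, with *Fabp4* at a mean of 14462 CPM and *Cidec*, *Adipoq*, *Lipe* and *Plin1* at 298 to 1138, so the label adipocyte was met. The label brown had little support from its markers. *Elovl3* and *Ppargc1a*, which are also expressed outside brown fat, stood at means of 267 and 51.9 CPM. *Ucp1*, the uncoupling protein that defines brown fat, was at 0 to 15.5, *Cidea* and *Prdm16* had means of 4.07 and 1.14, and *Dio2* was at 0 in 15 of 16 libraries. The summed level of the 12 markers fixed for brown adipocytes was 13587 to 22883 CPM in empty vector control, 10051 to 17849 in empty vector isoproterenol, 16894 to 21488 in sgRNA control and 10576 to 19979 in sgRNA isoproterenol. *Fabp4* alone made up 77.8% to 87.8% of that sum, so it is a general adipocyte level. *Ucp1*, *Cidea*, *Prdm16* and *Dio2* together came to 2.04 to 4.28, 7.58 to 13.7, 2.36 to 9.28 and 11.7 to 36.0 CPM in the same order of groups. The sum of 6 macrophage markers was 10.5 to 17.5, 19.2 to 27.6, 8.91 to 16 and 17.2 to 26.0 CPM in that order, with the defining markers *Adgre1* at 0 in 15 and *Ptprc* at 0 in 12 libraries. Of these macrophage markers *Cd68* and *Cd14* were tested and rose with isoproterenol. Of 11 brown adipocyte markers tested by edgeR, 2 rose and 3 fell with isoproterenol, against 4.49% of all genes that passed. With the replicate number as a block 4 rose and 5 fell, against 21.3%. The sum of 9 preadipocyte or fibroblast markers averaged 57.2, 80.1, 46.5 and 64.2 CPM in the same order of groups. Of the 5 tested, 0 passed without the block and 1 rose with it. The part of these marker shifts in the results below was not tested. For the ribosomal RNA share, a blocked fit with that share as covariate left the averaged isoproterenol effects of *Nfe2l1* at -0.34 (adjusted p = 4.43e-04 by edgeR), of *Psme2* at -0.43 (3.73e-04) and of *Psme4* at 0.18 (0.0118), and ended the blocked calls of *Psmd5* averaged over plasmids and of *Psme4* with the empty vector.

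The constitutive subunits were expressed over a wide range of levels, which are compared here per kilobase of merged exon (CPM per kb) as the mean over 16 libraries. *Psma1*, an alpha ring subunit, was at the top with 210 CPM per kb, with 166 in the lowest and 255 in the highest library, followed by the catalytic beta subunit *Psmb5* with 191, over libraries at 119 to 253. The ranges of these genes overlapped. Within the alpha ring the other members ran down to *Psma2* at 33.8, and the standard beta ring subunits ran from *Psmb5* to *Psmb1* at 53.7. The remaining catalytic subunits *Psmb6* and *Psmb7* lay next to each other at 78.4 and 80.4, with overlapping ranges. *Psmb10*, the catalytic subunit that replaces *Psmb7* in the interferon-induced immunoproteasome, was at 11.3, and its highest library, at 17.9, lay below the lowest of *Psmb7*, at 66.3.

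**Figure D1:**
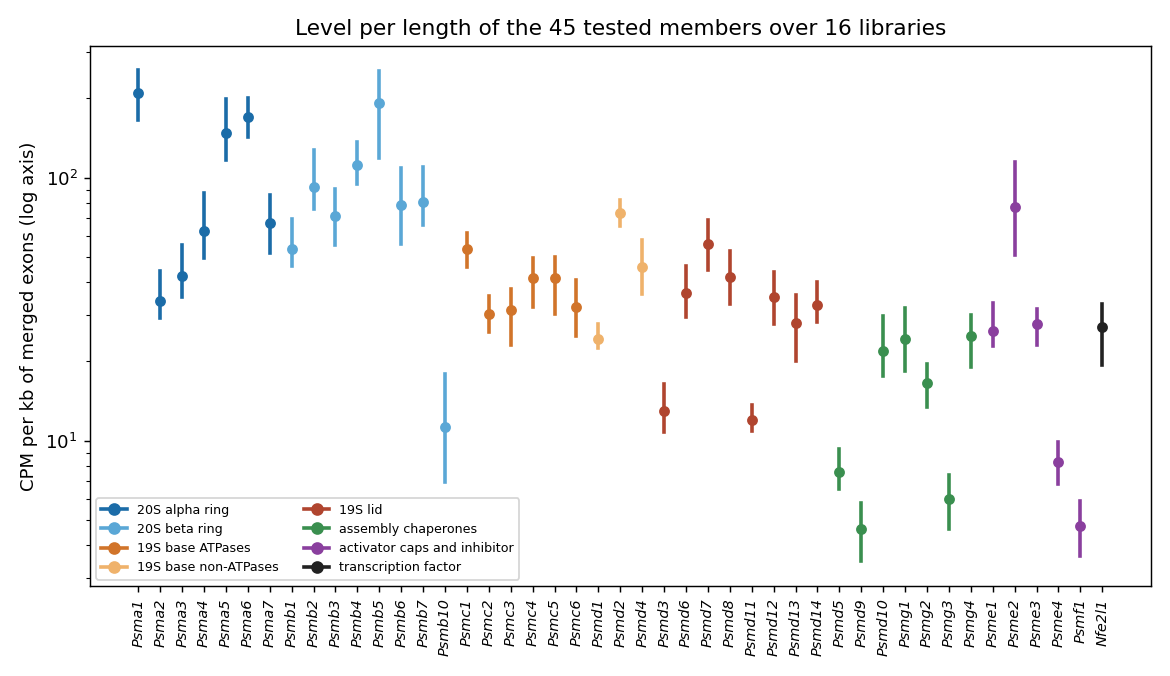
Level of each proteasome gene per kilobase of merged exon, on a log axis, with the mean over 16 libraries as a point and the lowest to highest library as a bar, for the 45 tested genes coloured by subcomplex. *Psma1* and *Psmb5* stand at the top with means of 210 and 191 CPM per kb, and the assembly chaperone *Psmd9* and the inhibitor *Psmf1* at the bottom of the tested genes with 4.63 and 4.72.

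The subunits of the regulatory particle ran from 12 to 73.2 CPM per kb. The base ATPases, which form the unfolding ring, ran from *Psmc2* at 30.2 to *Psmc1* at 53.6 CPM per kb. Of the non-ATPase base subunits, *Psmd2* stood at 73.2 and *Psmd1* at 24.4. The lid, which removes ubiquitin, ran from *Psmd11* at 12 to *Psmd7* at 55.7, and the assembly chaperones, which are absent from the finished particle, from *Psmd9* at 4.63 to *Psmg4* at 25.1. Among the caps, *Psme2* was at 77.6, above its partner subunit *Psme1* at 26.1. *Psme3*, the nuclear cap, was at 27.8, *Psme4*, the cap PA200, at 8.28, and the inhibitor *Psmf1* at 4.72. *Nfe2l1* was at 27.1, with libraries at 19.4 to 33.2. The order depended on the length used: with the median length of coding transcripts *Psma1* stayed at rank 1 of 48, but *Psmb7* moved from rank 7 to 2 and *Psmb5* from 2 to 4, so that *Psmb5* no longer followed *Psma1* and *Psmb7* no longer lay beside *Psmb6* (rank 8 by both). *Psme1* moved from rank 32 to 19 and *Psma2* from 24 to 31. *Psmc2*, the lowest ATPase per merged exon, became the highest, moving from rank 28 to 17, while *Psmc1* moved from 16 to 24. *Psme4* moved from rank 41 to 45, the lowest of the tested genes. Exons shared with neighbouring genes make some levels uncertain because the use of read strand was not stated. This holds above all for *Psmd9*, which shares 1849 of 7248 exon bases with *Gm26745*, and also for *Psmb7* (405 of 3421 with *Nek6*) and *Psmd13* (342 of 3377 with *Sirt3*). *Psmb5* (109 of 899 with *Mir686*), *Psmg3* (280 of 2893 with *Gm26938*) and *Psmd1* (301 of 7265 with *Gm21972*) share bases on the same strand, which read strand would not separate.

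Summed over its tested members, no subcomplex separated the groups when libraries were not paired by number, as the plot of summed levels by library shows. The alpha ring summed to 1659 ± 154 CPM in empty vector control, 1654 ± 288 in empty vector isoproterenol, 1629 ± 78.9 in sgRNA control and 1716 ± 171 in sgRNA isoproterenol (SD, n = 4). The beta ring summed to 1391 ± 227, 1357 ± 242, 1313 ± 124 and 1354 ± 206 CPM. The base ATPases summed to 577 ± 68.0, 594 ± 50.5, 591 ± 13.3 and 627 ± 43.4, and the lid to 780 ± 119, 777 ± 102, 770 ± 51.6 and 779 ± 101. These group means differed by less than the larger SD in each case. The sum of the caps with the inhibitor was lower under isoproterenol in both plasmid groups, and within each pair of the same number, although the groups overlapped. Its means in control and isoproterenol were 411 ± 40.2 and 363 ± 23.4 CPM with the empty vector and 382 ± 30.8 and 348 ± 24.2 with sgRNA. *Psme2* carried this difference: it averaged 166 and 116 CPM with the empty vector and 149 and 116 with sgRNA, and without it the caps summed to 245 ± 11 and 247 ± 4.16 and to 233 ± 18.3 and 232 ± 5.18. Per kilobase of merged exon, the mean level of an alpha ring gene was compared with that of a beta ring gene, leaving out *Psmb10*. This ratio was 1.06 ± 0.126, 1.09 ± 0.0946, 1.08 ± 0.0790 and 1.11 ± 0.0922 in the 4 groups. It differed between groups by less than its spread, and its size depends on the length used.

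**Figure D2:**
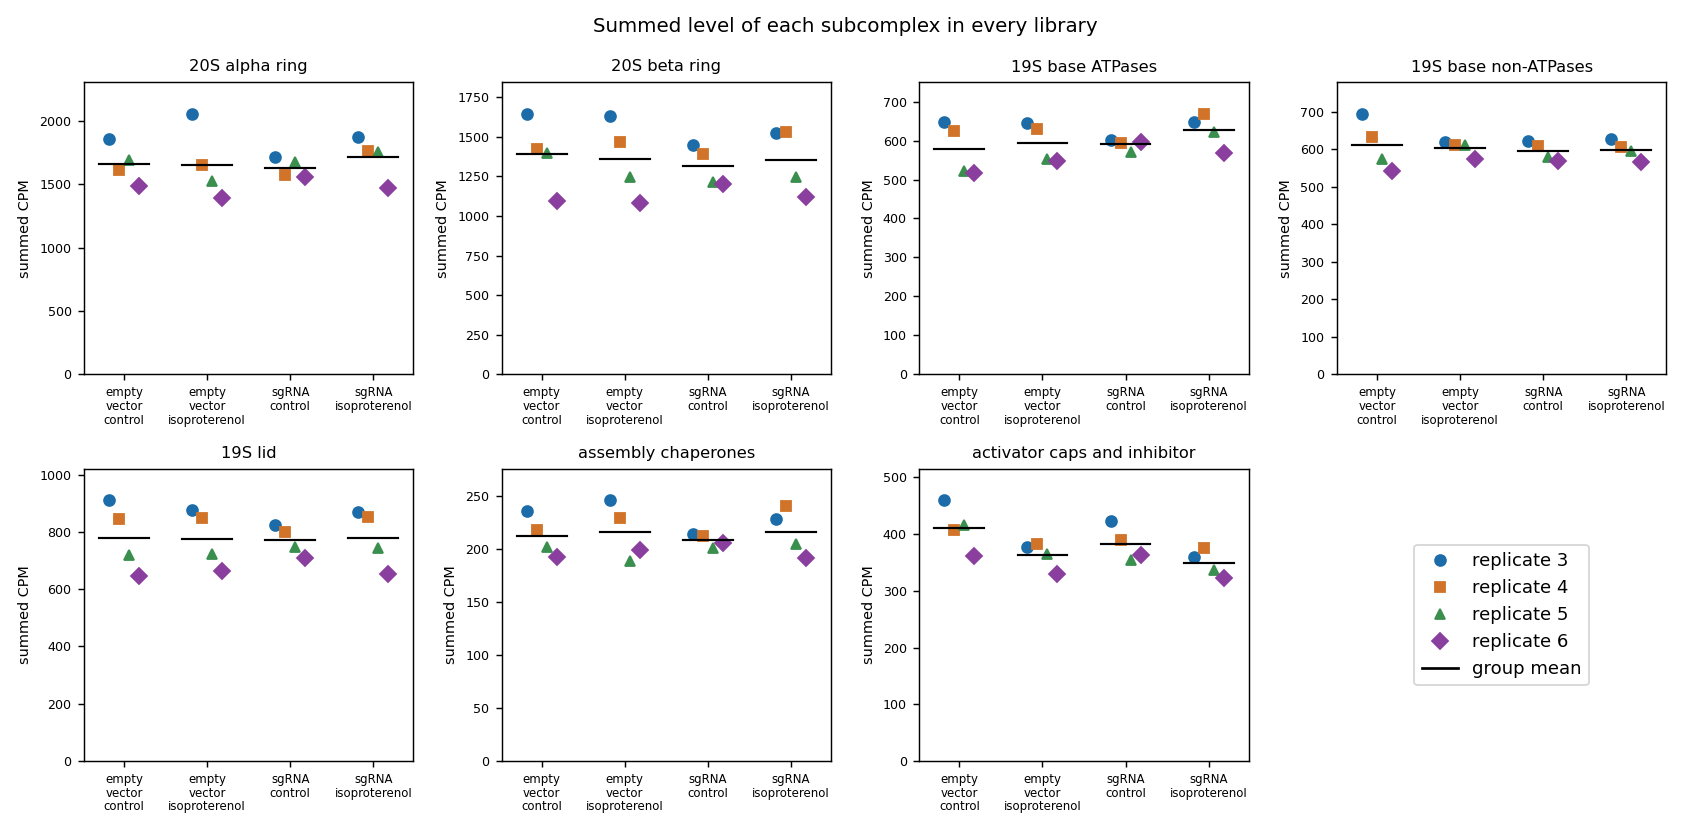
Summed CPM of each subcomplex in each library (points, marked by replicate number) in the 4 groups, with the group mean as a line and each axis starting at 0. Groups overlap in every panel, and the beta ring is lowest in replicate 6 of every group, at 1094, 1084, 1202 and 1120 CPM.

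The question of the stimulation was addressed by comparing isoproterenol with control, averaged over both plasmids. By the quasi-likelihood test of edgeR (adjusted after Benjamini-Hochberg), 1 of the 45 members passed an adjusted p of 0.05, against 4.49% of all genes tested, and it was *Nfe2l1*, which fell, as did 2.43% of all genes. No member also passed the bound of 0.5 on the log2 fold change, which 2.65% of all genes did. At an unadjusted p of 0.05, 5 members were below the threshold, which is 11.1% of them against 17.7% of all genes, and DESeq2 passed 2, *Nfe2l1* and *Psme2*, against 6.47% of all genes. Of the log2 fold changes, 25 were above and 20 below 0, with a median of 0.02 against 0.00 for all genes, and the median size was 0.06 against 0.14. For 42 of 45 members the 95% interval lay within 0.5 of 0 on either side, which held for 57.9% of all genes. When the replicate number was added as a block (same-numbered libraries deviated together), 6 members passed, which is 13.3% of them against 21.3% of all genes. *Psme4*, *Psmd12* and *Psmd5* rose, as did 10.9% of all genes, and *Nfe2l1*, *Psme2* and *Psmf1* fell, as did 10.4%. None of the 6 passed the bound of 0.5, which 5.7% of all genes did. Pooled over plasmids, the libraries of no member separated by treatment, against 1.46% of all genes.

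**Figure D3:**
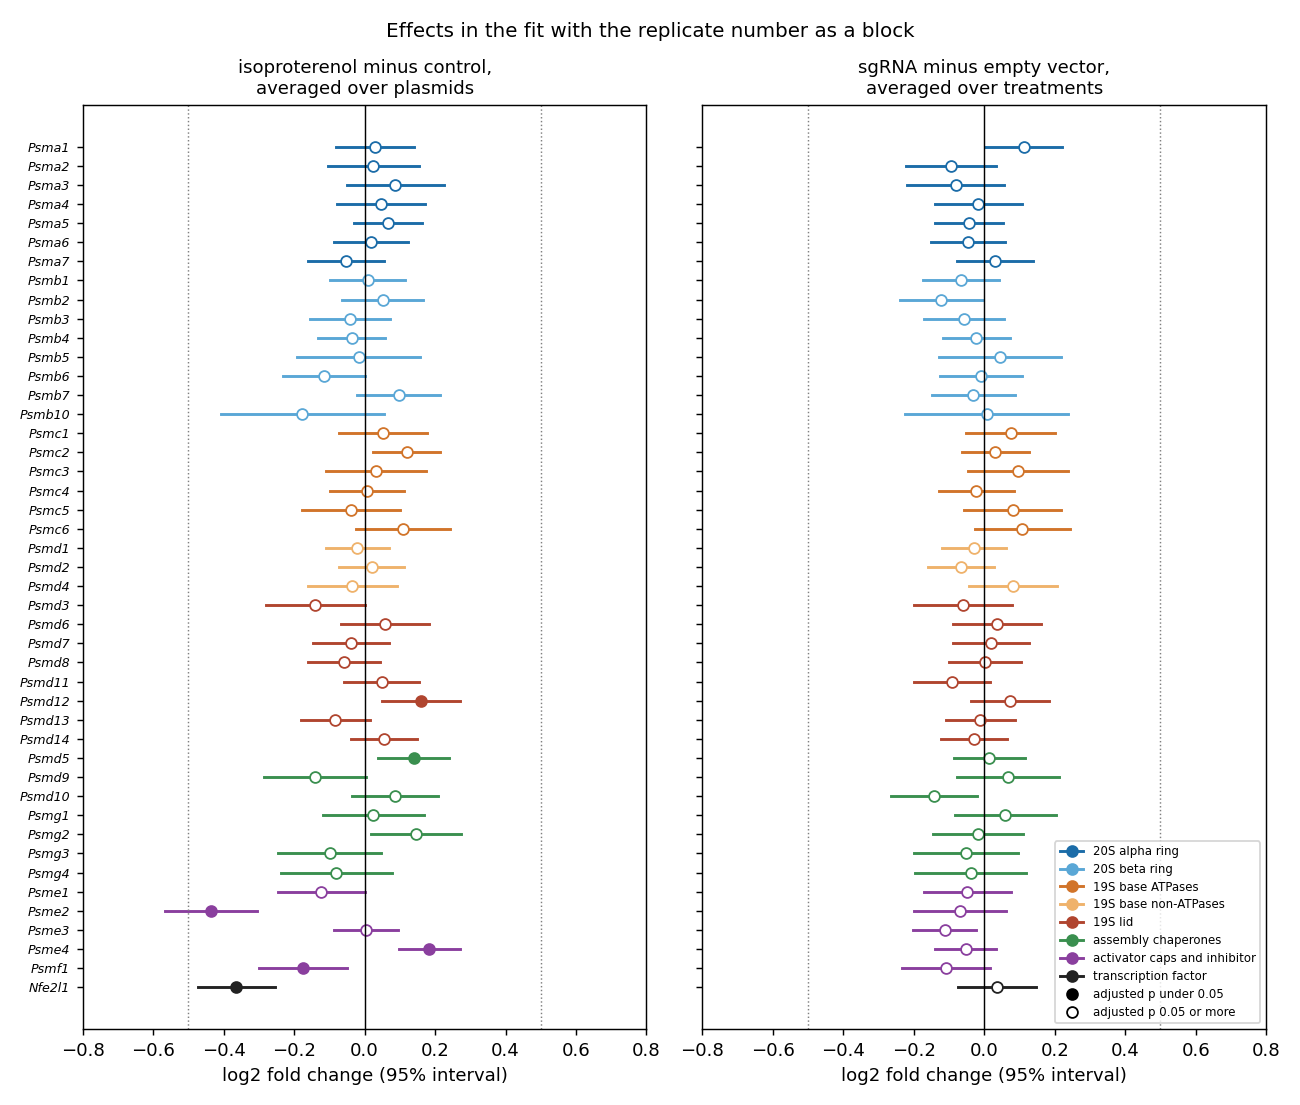
Log2 fold changes of all 45 tested members with 95% intervals in the fit with the replicate block, for isoproterenol against control (left) and sgRNA against empty vector (right), where filled points passed an adjusted p of 0.05 and dotted lines mark 0.5. On the left 6 members passed, from *Psme2* at -0.43 to *Psme4* at 0.18, and on the right none did.

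*Nfe2l1* (ENSMUSG00000038615, chr11:96817414-96829968, minus strand, GRCm38) was at 169, 179, 174 and 132 CPM in replicates 3, 4, 5 and 6 of empty vector control and at 106, 141, 148 and 115 in empty vector isoproterenol. With sgRNA it was at 167, 174, 181 and 149 CPM in control and at 131, 134, 145 and 112 with isoproterenol. The isoproterenol library was the lower of the pair in 8 of 8 pairs. In the sgRNA groups every stimulated library lay below every control library, whereas with the empty vector control replicate 6 lay within the stimulated range. The gene fell by 0.36 on the log2 scale (SE 0.09, 95% interval -0.55 to -0.17, adjusted p = 0.0304 by edgeR without the block, and 1.18e-04 with it). Without the block the call was lost without any 1 of 11 of the 16 libraries: empty vector control 3 (0.0618), 4 (0.0708) or 5 (0.0688), empty vector isoproterenol 3 (0.0605) or 6 (0.0718), sgRNA control 3 (0.0658), 4 (0.0610) or 5 (0.0741), and sgRNA isoproterenol 3 (0.0607), 4 (0.0563) or 6 (0.0648). It was also lost without all 4 libraries of replicate 3 (0.288), 4 (0.179) or 5 (0.0628). The log2 fold change stayed between -0.41 and -0.32 in all fits with a library or replicate left out. With the block it passed without each replicate number in turn, at adjusted p of 5.60e-04 to 0.00366, and over all alternatives the adjusted p ran from 8.80e-10 to 0.288.

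*Psme2* (ENSMUSG00000079197, chr14:55587441-55591113, minus strand), which encodes the beta subunit of the interferon-inducible PA28 cap, had the largest fold change of the set. It was at 202, 157, 183 and 121 CPM in empty vector control and at 128, 133, 115 and 89.3 in empty vector isoproterenol. With sgRNA the values were 167, 154, 144 and 131 CPM in control and 125, 140, 112 and 89.3 with isoproterenol. Each stimulated library was lower than its control of the same number, in 8 of 8 pairs, but the groups overlapped through the control libraries of replicate 6, the lowest of each group. Its log2 fold change was -0.43 (SE 0.12, 95% interval -0.69 to -0.18), which missed the threshold without the block (adjusted p = 0.0521, edgeR) and passed with it (1.11e-04). It also passed without the block when empty vector control 6 (0.0154), sgRNA isoproterenol 4 (0.0428) or all replicates 6 (0.0196) were left out, and over all alternatives the adjusted p ran from 7.22e-10 to 0.312. *Psme2b* could take reads from *Psme2*, but was at 10 counts at most.

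*Psme1* (chr14:55578123-55581529, plus strand), which encodes the alpha subunit of the same cap, was at 73.4, 55.8, 63.0 and 58.3 CPM in empty vector control and at 53.2, 54.1, 60.8 and 50.5 in empty vector isoproterenol. In the sgRNA groups it was at 64.7, 52.8, 56.3 and 56.6 CPM in control and 53.2, 58.0, 59.9 and 50.6 with isoproterenol. These groups overlapped, and its log2 fold change of -0.13 did not pass (adjusted p = 0.393 by edgeR, and 0.153 with the block). Per kilobase of merged exon, *Psme2* stood at 3.30 ± 0.479 times *Psme1* in empty vector control and 2.67 ± 0.447 times in empty vector isoproterenol, and at 3.25 ± 0.315 and 2.63 ± 0.412 times in the sgRNA groups (SD, n = 4). These ratios depend on the length: per coding transcript they were 2.13 ± 0.309, 1.73 ± 0.289, 2.10 ± 0.204 and 1.70 ± 0.266 in the same order of groups. The ratio was lower in the stimulated library in all 8 pairs, and was not tested on its own.

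*Psme4* (ENSMUSG00000040850, chr11:30771726-30880361, plus strand), which encodes the PA200 cap, went the other way. It was at 63.3, 67.0, 57.4 and 73.5 CPM in empty vector control and 74.1, 74.3, 73.4 and 83.2 in empty vector isoproterenol. With sgRNA it was at 63.9, 67.7, 57.9 and 69.4 CPM in control and 67.1, 70.3, 68.2 and 80.5 with isoproterenol. It was higher with isoproterenol in 8 of 8 pairs, and with the empty vector control replicate 6 alone reached the stimulated range. The log2 fold change was 0.18 (SE 0.07, adjusted p = 0.141 by edgeR without the block). With the block it rose (SE 0.04, adjusted p = 0.0042), and it passed without each replicate number in turn, at 0.0173 to 0.0475.

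*Psmf1* (ENSMUSG00000032869, chr2:151715812-151744186, minus strand) encodes PI31, a protein that inhibits the core particle in vitro. It was at 34.1, 34.2, 33.6 and 30.7 CPM in empty vector control and 33.9, 29.5, 29.6 and 26.6 in empty vector isoproterenol, and with sgRNA at 37.9, 28.6, 28.2 and 30.6 in control and 31.0, 26.0, 23.5 and 28.7 with isoproterenol. The stimulated library was the lower in 8 of 8 pairs, with overlapping groups. The log2 fold change was -0.18 (SE 0.08, adjusted p = 0.270 by edgeR), and -0.17 with the block, where it passed at 0.0458. That call was lost without any of the 4 replicate numbers, at 0.0888, 0.147, 0.118 and 0.0887 without 3, 4, 5 and 6, and by DESeq2 with the block (0.0676), and kept with the ribosomal RNA share as covariate (0.0166). *Psme3* had a log2 fold change of 0.00, with an interval of -0.15 to 0.15.

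**Figure D4:**
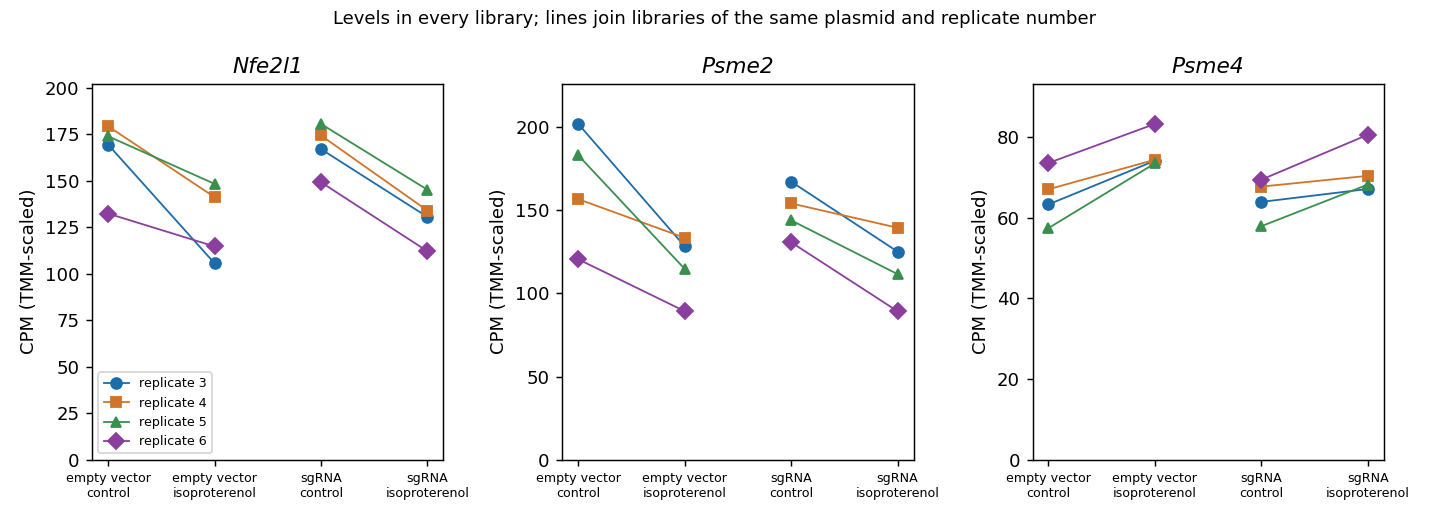
TMM-scaled CPM of *Nfe2l1*, *Psme2* and *Psme4* in each library of the 4 groups, with lines joining libraries of the same plasmid and replicate number and axes starting at 0. *Nfe2l1* and *Psme2* are lower with isoproterenol in 8 of 8 pairs and *Psme4* is higher in 8 of 8.

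The catalytic subunits, which carry the caspase-like (*Psmb6*), trypsin-like (*Psmb7*) and chymotrypsin-like (*Psmb5*) activities, did not pass in either fit. *Psmb5* (ENSMUSG00000022193, chr14:54614119-54618022, minus strand) was at 228, 175, 191 and 107 CPM in empty vector control, 149, 195, 190 and 125 in empty vector isoproterenol, 191, 170, 176 and 145 in sgRNA control and 188, 211, 186 and 123 in sgRNA isoproterenol. Its log2 fold change with isoproterenol was -0.02 with a 95% interval of -0.33 to 0.30, narrowed to -0.19 to 0.16 by the block. Replicate 6 was the lowest library of each group.

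*Psmb6* was at 203, 165, 150 and 110 CPM, 165, 161, 123 and 105, 169, 156, 136 and 129, and 172, 173, 122 and 109 in the same order of groups, with a log2 fold change of -0.11 (interval -0.41 to 0.19). *Psmb7* was at 314, 275, 266 and 228, 376, 294, 250 and 227, 279, 280, 231 and 245, and 322, 317, 258 and 239 CPM, with a log2 fold change of 0.11 (interval -0.12 to 0.34). The stimulated and control ranges of both overlapped. *Psmb10* was at 30.6, 24.2, 17.9 and 11.8 CPM, 19.5, 22.7, 15.5 and 12.4, 19, 22.6, 17.7 and 18.8, and 20.4, 26.9, 16.3 and 11.9. Its log2 fold change was -0.16, and with an interval of -0.57 to 0.25 it was the least precise of the 4.

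In the rest of the core particle no member passed. The alpha ring had 6 log2 fold changes above and 1 below 0, from *Psma7* at -0.04 to *Psma3* at 0.09, with a median of 0.03. The beta ring had 3 above and 5 below, from *Psmb10* at -0.16 to *Psmb7* at 0.11, with a median of -0.03. The smallest adjusted p of any core subunit was 0.613 by edgeR without the block.

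In the regulatory particle, the lid member *Psmd12* passed with the block only, and so did *Psmd5*, a chaperone that is absent from the finished particle. *Psmd12* (ENSMUSG00000020720, chr11:107479484-107504362, plus strand) was at 104, 94.8, 73.2 and 76.2 CPM in empty vector control, 109, 102, 87.0 and 83.4 in empty vector isoproterenol, 94.8, 90.2, 88.6 and 83.5 in sgRNA control and 112, 116, 101 and 81.1 in sgRNA isoproterenol. It was higher with isoproterenol in 7 of 8 pairs, the exception being sgRNA replicate 6, and the groups overlapped. The log2 fold change was 0.16 (adjusted p = 0.397 by edgeR, 0.0389 with the block), and the blocked call was lost without replicate 3, 4 or 5 (0.0985, 0.182 and 0.107) and kept without 6 (0.0452).

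*Psmd5* (ENSMUSG00000026869, chr2:34849734-34874968, minus strand), a chaperone of base assembly, was at 56.0, 50.5, 47.4 and 52.9 CPM in empty vector control, 67.4, 56.7, 51.7 and 55.8 in empty vector isoproterenol, 52.9, 51.9, 52.5 and 54.1 in sgRNA control and 62.5, 60.7, 52.7 and 54.1 in sgRNA isoproterenol. The stimulated library was higher in 7 of 8 pairs. The log2 fold change was 0.14 (adjusted p = 0.267 by edgeR, 0.0481 with the block), and the blocked call was lost without any of the replicate numbers 3, 4, 5 and 6 (0.227, 0.204, 0.0697 and 0.0639). That call was also lost with the ribosomal RNA share as covariate (0.0589), and kept by DESeq2 with the block (0.0347). The ATPase *Psmc2* (0.12) did not pass by edgeR (adjusted p = 0.339, and 0.0690 with the block) but passed by DESeq2 with the block (0.0262), and in the sgRNA groups its stimulated libraries, at 171, 168, 156 and 153 CPM, all lay above the controls, at 145, 148, 143 and 146. The base ATPases had 5 log2 fold changes above and 1 below 0 (median 0.04), the other base subunits 1 and 2 (median -0.02, lowest *Psmd4* at -0.04), the lid 4 and 4 (median 0.01), the chaperones 4 and 3 (median 0.04), and the caps with the inhibitor 2 and 3 (median -0.13).

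Within each plasmid the isoproterenol effect was estimated from 4 libraries against 4. No member passed by edgeR without the block, against 0.913% of all genes with the empty vector and 0.722% with sgRNA. At an unadjusted p of 0.05 there were 3 members against 10.1% of all genes with the empty vector and 1 against 8.46% with sgRNA, and DESeq2 passed 0 in each, against 1.98% and 1.53% of all genes. With the block, 3 members passed with the empty vector, against 9.57% of all genes: *Nfe2l1* fell by 0.36 (adjusted p = 0.00484), *Psme2* fell by 0.50 (0.00154) and *Psme4* rose by 0.22 (0.0220). With the block and sgRNA, 2 members passed, against 8.4% of all genes: *Nfe2l1* fell by 0.37 (0.00469) and *Psme2* fell by 0.37 (0.0141). Only *Psme2* with the empty vector also passed the bound of 0.5, which 4.47% of all genes did, and with sgRNA no member did, against 3.9%. That estimate lay at the bound and fell short of it with the ribosomal RNA share as covariate (-0.489), with DESeq2 and the block (-0.499) and without replicate 3 (-0.447) or 5 (-0.443). Of these calls at an adjusted p of 0.05 only that of *Psme2* with the empty vector was kept without each replicate number in turn (adjusted p of 0.00203 to 0.0241). *Nfe2l1* was lost without number 4 with the empty vector (0.0528) and without 4 or 6 with sgRNA (0.0539 in both), *Psme2* with sgRNA without 3, 5 or 6 (0.0648, 0.0552 and 0.111), and *Psme4* without any of 3, 4, 5 and 6 (0.0996, 0.0798, 0.122 and 0.0853). Stimulated and control libraries did not overlap for *Nfe2l1* and *Psmc2* with sgRNA, against 7.23% of all genes, and for no member with the empty vector, against 4.08%.

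Whether the response to isoproterenol differed between plasmids was tested by the interaction. No member passed by edgeR with or without the block, as for all genes tested (0%), 0 members had an unadjusted p under 0.05 in either fit, against 0.395% of all genes without the block and 1.51% with it, and DESeq2 passed 0, as for all genes (0%). The difference in response was -0.00 for *Nfe2l1* (95% interval -0.38 to 0.38), and 0.15 for *Psme2* (interval -0.36 to 0.66, and -0.13 to 0.40 with the block). The estimates ran from *Psme4* at -0.08 to *Psmg3* at 0.26.

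The sgRNA plasmids were compared with the empty vector averaged over both treatments. No member passed by edgeR, against 0% of all genes without the block and 0.586% with it, and DESeq2 passed 0, against 0.053%. At an unadjusted p of 0.05 there were 0 members without the block, against 3.32% of all genes, and 4 with it (*Psma1*, *Psmb2*, *Psmd10* and *Psme3*), which is 8.89% of them against 11.5% of all genes. The log2 fold changes ran from *Psmd10* at -0.15 to *Psma1* at 0.11, and all 45 intervals lay within 0.5 of 0, against 67.1% of all genes. By role, 5 of 6 ATPases had estimates above 0 (median 0.08), and 7 of 8 beta ring genes and 5 of 5 caps or inhibitor had estimates below it (median of the caps -0.08). Also below 0 were 5 of 7 alpha ring genes, 5 of 8 lid genes, 4 of 7 chaperones and 2 of 3 other base subunits. The median of all genes was -0.01. Of the 8 beta ring estimates, 8 lay below 0 in control cells and 4 in stimulated cells. These counts of signs were not tested. The smallest p in each subcomplex belonged to *Psma2* (-0.10), *Psmb2* (-0.13), *Psmc1* (0.08), *Psmd2* (-0.07), *Psmd11*, *Psmd10* and *Psme3* (-0.11). The estimate of *Psmc1* turned below 0 with the ribosomal RNA share as covariate in the blocked fit. *Nfe2l1* was at 0.03 (interval -0.16 to 0.22). *Psmd11*, a lid subunit, was lower with sgRNA in 8 of 8 pairs, at -0.09, with an adjusted p of 0.517 with the block. Its sign turned with the ribosomal RNA share as covariate in the blocked fit (0.011) and with total-count scaling (0.21), and that share was higher with the empty vector in the same 8 pairs.

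Without stimulation no member passed the comparison of sgRNA with empty vector by edgeR in either fit, against 0% of all genes without and 0.038% with the block, and with stimulation none passed, against 0% and 0.137%. At an unadjusted p of 0.05 there were 0 members without the block in both, against 1.48% and 1.49% of all genes. With the block there were 0 without stimulation, against 5.73%, and 2 with it, against 7.29%, and DESeq2 passed 0 in both, against 0.00575% of all genes in each. In control cells *Psma2* was the only member whose libraries did not overlap, at 137, 121, 137 and 120 CPM with the empty vector and 116, 115, 119 and 118 with sgRNA, against 1.3% of all genes.

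Of the variation left, much went with the replicate number, which was looked at by gene after the summed levels had been seen. Averaged over groups, 42 of 45 members (93.3%) were higher in replicate 3 than in replicate 6, against 49.6% of all genes, with a median log2 difference of 0.33 against -0.00. In 3 or more of the 4 groups 30 members (66.7%) were lowest in replicate 6, against 18.1% of all genes, and 21 (46.7%) were highest in replicate 3, against 10.5%. The beta ring had the largest median of the subcomplexes, at 0.50, with log2 differences of 0.35 to 0.70. In at least 3 groups 8 of 8 of its genes were lowest in replicate 6, and 7 of 8 genes of the lid. The alpha ring had a median of 0.38 (0.06 to 0.56), the lid 0.36 (0.11 to 0.56) and the chaperones 0.32 (-0.27 to 0.50). The ATPases were at 0.24 (-0.01 to 0.34), the caps at 0.18 (-0.19 to 0.53) and the other base subunits at 0.17 (0.14 to 0.29). Most of these ranges overlapped that of the beta ring, and the difference between subcomplexes was not tested. A joint test of the replicate number in the blocked fit passed 35 members (77.8%) against 54.7% of all genes, and 29 (64.4%) against 45% when the share of ribosomal RNA entered the fit. Related lists were also lower in replicate 6 than in replicate 3, and the difference between them and the members was not tested: proteasome partners averaged 926, 912, 893 and 860 summed CPM in replicates 3, 4, 5 and 6, ubiquitin genes and shuttle factors 3321, 3107, 2894 and 2729, and interferon-inducible genes 1481, 1373, 900 and 856. The genes listed around *Nfe2l1*, which include related factors, differed little between these replicates, at 624, 599, 657 and 618, and were highest in replicate 5. The labels do not say what the number stands for. The summed adipocyte markers, of which *Fabp4* is the bulk, were 19261, 20550, 17164 and 12777 CPM on average in replicates 3, 4, 5 and 6, and 3314, 2817, 3447 and 2323 without *Fabp4*. *Ucp1*, *Cidea*, *Prdm16* and *Dio2* together were at 8.48, 5.91, 15.1 and 8.03, and preadipocyte or fibroblast markers 42.0, 52.0, 34.6 and 119, with *Dpp4* at 1 count in all. Their part in the difference was not tested.

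**Figure D5:**
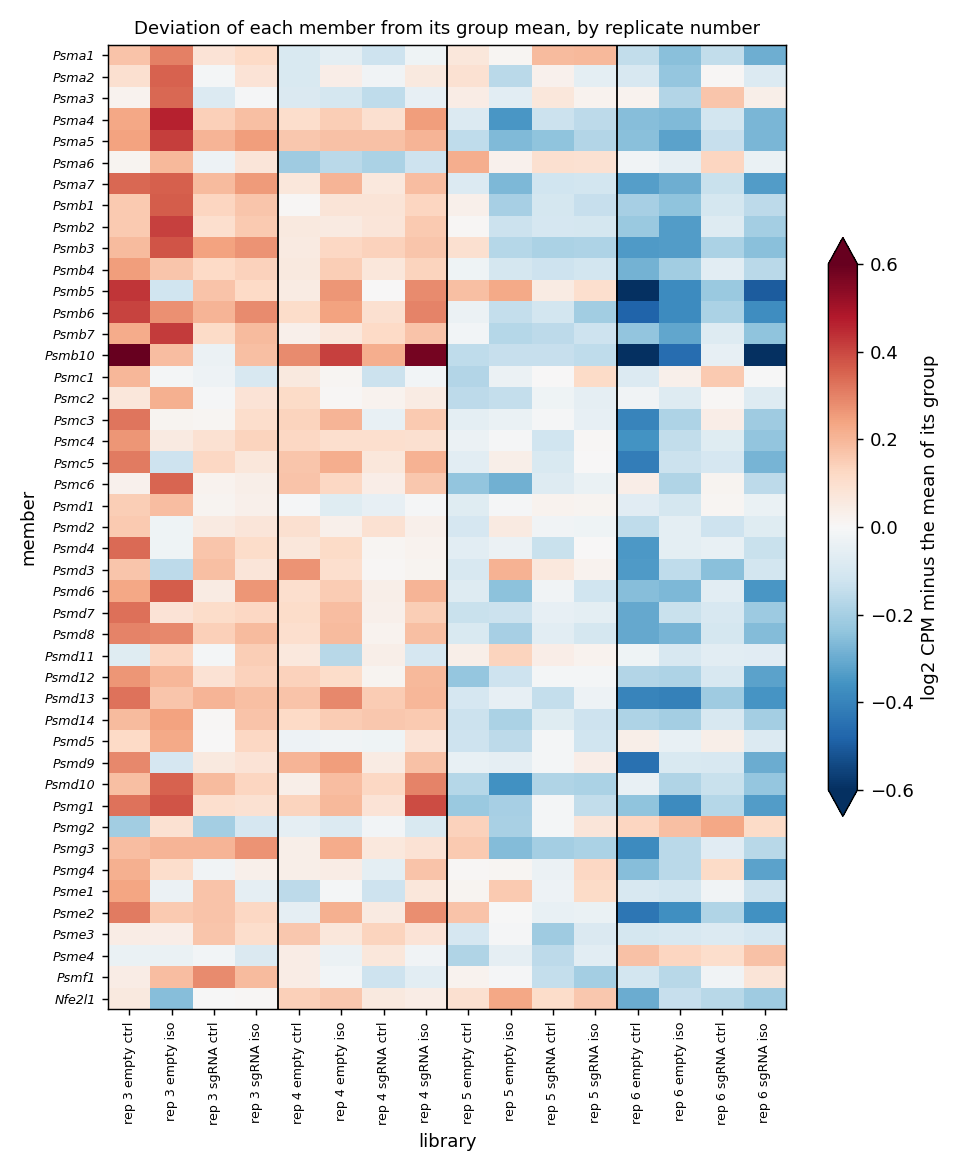
Log2 CPM of each of the 45 tested members (vertical axis, by subcomplex) minus the mean of its group, as colour, in each of the 16 libraries (horizontal axis, ordered by replicate number). Replicate 6 is blue (low) for most members, and the 8 beta ring genes differ between replicates 3 and 6 by 0.35 to 0.70 on average.

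Other genes of the pathway were taken from lists, whose counts stand beside the 4.49% of all genes that passed for isoproterenol without the block and the 21.3% that passed with it. Of proteasome-bound partners, 11 of 13 symbols were found and tested, and by edgeR 0 passed for isoproterenol without the block (1 at an unadjusted p of 0.05). With the block 2 rose, the deubiquitinase *Usp14* at 0.18 (adjusted p = 0.0043) and *Zfand5*, a stress-induced proteasome activator, at 0.18 (0.0174), both higher in 8 of 8 pairs (2 of 11, against 10.9% of all genes that rose). Of 13 genes listed around *Nfe2l1*, which include related factors, 1 rose and 1 fell without the block. *Nfe2l2*, which encodes the related factor NRF2, rose by 0.36 (0.0260), and *Ngly1*, the deglycosylase that processes the NFE2L1 protein, fell by 0.27 (0.0450). With the block *Ddi2*, the protease that cleaves NFE2L1, also fell (-0.16, 0.0413). Of 11 tested ubiquitin genes and shuttle factors 0 passed without the block (1 at an unadjusted p of 0.05), and with it *Rps27a*, a ubiquitin fusion gene, rose by 0.28 (0.0046) and the shuttle *Ubqln1* fell by 0.38 (3.18e-04). For the sgRNA effect 0 genes of these lists passed in either fit.

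*Psme1*, *Psme2* and *Psmb10* are induced by interferon along with genes of antigen presentation, and 11 such genes outside the set were read beside them. With isoproterenol 1 of 11 fell, against 2.43% of all genes, and 0 rose by edgeR without the block, the peptide-loading gene *Tapbp* at -0.47 (adjusted p = 0.0045, lower in 8 of 8 pairs). With the block 5 of 11 fell, against 10.4% of all genes, among them the class I gene *H2-K1* at -0.55 (2.60e-04), and the median of the list was -0.23 against 0.00 for all genes. The excluded immunoproteasome subunits *Psmb8* and *Psmb9* stood at means of 5.15 and 9.81 CPM.

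Promoter windows are shown for the 3 members that passed the blocked averaged fit and kept their call without each replicate number in turn (*Nfe2l1* and *Psme2*, lower, and *Psme4*, higher) and for *Psmb5*, which did not pass. They run from 250 bases before to 50 after the RefSeq start on GRCm38.p6, and 40 of the 48 members had such a window. Of several windows of a gene (5 for *Nfe2l1*, 2 for *Psme2*), the most upstream is shown. Both strands were searched for the antioxidant response element TGACNNNGC, the element that NFE2L1 binds, and for TGACG, the core of the cAMP response element, which can lie inside the former, and for 3 further motifs given after the sequences. Capitals below mark matches of the antioxidant response element or TGACG, the sequences run 5′ to 3′ on the gene's strand, and positions count from the start site with -1 before it. *Nfe2l1* (chr11:96829919-96830218, minus strand) held TGACG from -69 to -65 and its reverse complement from -155 to -151, *Psme2* (chr14:55591052-55591351, minus strand) the reverse complement from -159 to -155, *Psme4* (chr11:30771525-30771824, plus strand) a reversed response element from -7 to 2, and *Psmb5* (chr14:54617946-54618245, minus strand) a response element from -47 to -39.
Nfe2l1: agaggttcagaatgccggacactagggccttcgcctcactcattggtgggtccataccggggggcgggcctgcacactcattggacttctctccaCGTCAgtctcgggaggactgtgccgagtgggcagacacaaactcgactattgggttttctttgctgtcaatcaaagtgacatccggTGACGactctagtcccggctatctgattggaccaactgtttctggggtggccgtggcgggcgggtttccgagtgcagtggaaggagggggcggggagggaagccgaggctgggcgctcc
Psme2: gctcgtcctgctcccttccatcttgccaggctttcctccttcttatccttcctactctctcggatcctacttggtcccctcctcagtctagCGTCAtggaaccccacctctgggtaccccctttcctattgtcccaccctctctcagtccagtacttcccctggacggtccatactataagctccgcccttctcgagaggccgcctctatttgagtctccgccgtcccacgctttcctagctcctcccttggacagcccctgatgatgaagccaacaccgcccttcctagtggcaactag
Psme4: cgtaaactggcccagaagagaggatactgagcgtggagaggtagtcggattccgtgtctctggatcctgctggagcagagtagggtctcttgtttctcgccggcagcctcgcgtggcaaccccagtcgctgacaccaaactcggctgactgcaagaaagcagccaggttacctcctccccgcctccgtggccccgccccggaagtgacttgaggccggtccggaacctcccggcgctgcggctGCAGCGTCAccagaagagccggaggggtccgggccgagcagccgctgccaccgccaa
Psmb5: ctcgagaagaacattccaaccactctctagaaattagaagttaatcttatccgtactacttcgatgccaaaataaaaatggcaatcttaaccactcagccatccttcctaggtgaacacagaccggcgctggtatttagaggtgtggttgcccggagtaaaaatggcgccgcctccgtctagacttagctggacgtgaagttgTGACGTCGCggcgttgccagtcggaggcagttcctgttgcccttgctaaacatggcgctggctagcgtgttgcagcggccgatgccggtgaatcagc

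The antioxidant response element was found in any window of 6 of the 40 members (15.0%), against 14% of 27025 genes. The 6 were *Psmb5*, *Psmb6*, *Psmc6*, *Psmd12*, *Psmd9* and *Psme4*, whose blocked log2 fold changes with isoproterenol were -0.02, -0.12, 0.11, 0.16, -0.14 and 0.18. With the block 2 of the 6 rose, *Psmd12* and *Psme4*, against 10.9% of all genes, and the others did not pass. Neither passed by edgeR without the block, and the blocked call of *Psmd12* was lost without some replicate numbers. TGACG was found in 19 members (47.5%), against 23.0% of all genes. Of the other motifs searched in the same windows on both strands, the GC box GGGCGG was in 23 members (57.5%, against 38.2%), the CCAAT box, CCAAT, in 14 (35.0%, against 41.1%) and TTCNNNGAA in 2 (5.0%, against 9.6%). A higher share than among all genes was thus not particular to TGACG. A match to these letters is a description of the window and no evidence of binding, and other regulatory sequence was not read.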

How the data were processed

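Polyadenylated RNA of 16 libraries was sequenced in paired ends (NEBNext Ultra II kit). Per the study's methods and processing notes, reads were filtered by the authors with cutadapt, and salmon was run against Gencode M22, alone or with RNAcentral (which of these was used here, the tool versions and the use of strand were not given in the sources used here). The deposited values are estimated counts for each gene, unnormalized and already whole numbers. The notes also name bcl2fastq and DESeq2. The values of paralogs and of overlapping or antisense genes are therefore uncertain. Every column of sample values was used.

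Counts were tested in R 4.3.3 with edgeR 4.0.16: filterByExpr (minimum count 10, minimum total 15), TMM scaling, 4 group means on all 16 libraries, glmQLFit and glmQLFTest, two-sided, Benjamini-Hochberg over 13150 genes. "Passed" means an adjusted p under 0.05, and the bound on the log2 fold change was 0.5. Levels are TMM-scaled CPM, and coordinates and exon lengths come from Gencode M21 (GRCm38), in which all 48 members were found. Sequencing depth was 9053521 to 16546187 counts, and limits from a count of 0 cover counting error only.

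Libraries with the same replicate number deviated together from their group means (correlation 0.22 to 0.61 in all 24 pairs, against -0.51 to 0.52, median -0.21, between different numbers), so the numbers were taken to pair the libraries, from the data and not from a label. The block on the number lowered the biological coefficient of variation from 18.0% to 9.96%. Alternatives were the block, with and without the ribosomal RNA share as covariate, RLE and total-count scaling, no filter, DESeq2 1.42.0, and leaving out libraries.

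Genes named are *Nfe2l1*, the catalytic and interferon-inducible members, and in each subcomplex the smallest p for each averaged effect and the highest and lowest level per length. *Psme4*, members that passed with the block and those without overlap were named after their values were seen, and so were the sums without *Fabp4* or *Psme2* and the sum of 4 thermogenic genes chosen. The members and lists were chosen with earlier results of these data known. 1 gene of the interferon list is not reported here, and its counts leave that gene out.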

Additional observations from a re-analysis of the deposited data

Results flagged for a closer look

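In 4 of 140 groups of 4 libraries, 1 library stood far from the other 3, and chance gives this in about 1 in 20 groups. *Psmd1* was lowest in sgRNA control replicate 4, at 169 CPM against 177 to 178 in the others. *Psmd9* was highest in empty vector isoproterenol replicate 4, at 36.0 CPM against 28.2 to 29.1. *Psmf1* was lowest in empty vector control replicate 6, at 30.7 CPM against 33.6 to 34.2. *Psme4* was highest in empty vector isoproterenol replicate 6, at 83.2 CPM against 73.4 to 74.3. No member had an interaction of plasmid and treatment with an adjusted p under 0.05 by edgeR.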

How the results depend on the processing

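For the averaged isoproterenol effect 1 member passed. With the replicate block, which pairs libraries by number, 6 passed (21.3% of all genes), with the block and the ribosomal RNA share as covariate 5 (19.3%, without *Psmd5*), with DESeq2 2 (6.47%), with DESeq2 and the block 6 (17.5%, *Psmc2* in place of *Psmf1*), without the filter on low counts 2 (1.62%), and with total-count scaling 0 (1.91%). With libraries left out 0 to 4 passed, of which 0 to 1 passed the bound of 0.5. In those fits 1.03% to 6.42% of all genes passed without the block and 13.4% to 16% with it. The count of 4 came with the block and without replicates 6 (15.3%). With the empty vector 0 passed, but 3 with the block (1 past the bound, 9.57% of all genes passed), 2 with the covariate (7.88%) and 3 with DESeq2 and the block (4.81%). With libraries left out, with or without the block, 0 to 2 passed (0 to 1 past the bound), against 0.264% to 6.92% of all genes. With sgRNA 0 passed, but 2 in each of the 3 blocked fits (8.4%, 9.03% and 9.21%). With libraries left out, with or without the block, 0 to 1 passed, against 0.219% to 5.64% of all genes. Without the block, leaving out empty vector control 6, or all replicates 6, raised the averaged count to 2. The block changed no other call. Total-count scaling moved the median of all genes by -0.12 for isoproterenol and 0.28 for sgRNA, and turned the sign of small effects that had not passed. For isoproterenol these became *Psmb7* -0.029, *Psma3* -0.049, *Psma2* -0.10, *Psma1* -0.10, *Psmb2* -0.076, *Psmc2* -0.016, *Psmc1* -0.079, *Psmd2* -0.12, *Psmd11* -0.089, *Psmd10* -0.034 and *Psme3* -0.13. For sgRNA they became *Psma2* 0.20, *Psmb2* 0.17, *Psmd2* 0.21, *Psmd11* 0.21, *Psmd10* 0.13 and *Psme3* 0.17. Without the filter *Psmd2* was -0.011 and *Psme3* -0.028. With the block and covariate *Psmb5* was 0.027, *Psmd7* 0.0039 and *Psme3* -0.012 for isoproterenol, and *Psmc1* -0.077 and *Psmd11* 0.011 for sgRNA. With libraries left out, isoproterenol effects that had not passed changed sign for *Psmb5* -0.11 to 0.096, *Psma2* -0.036 to 0.086, *Psma1* -0.020 to 0.079, *Psmb2* -0.015 to 0.11, *Psmd4* -0.096 to 0.035, *Psmd2* -0.010 to 0.048, *Psmd1* -0.052 to 0.0057, *Psmd11* -0.013 to 0.11, *Psmd7* -0.088 to 0.020 and *Psme3* -0.038 to 0.029. The causes were not tested.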
